A study of Mus musculus with 8 samples.

Results

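The Hippo pathway genes described here are Yap1, Wwtr1, Tead1, Tead4, Lats1, Lats2, Amotl2 and Vgll4, and the measurement is open chromatin in mouse granulosa cells. A region was counted for a gene if it overlapped the gene body or the 50 kb on either side of it. Regions are the merged peaks of all 8 libraries, so 1 region can hold peaks of several libraries. The 8 genes had 115 such regions, of 98245 on chromosomes 1 to 19 and X.

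The Hippo pathway is a kinase cascade that limits tissue growth. LATS1 and LATS2 are its final kinases, and they phosphorylate the coactivators YAP1 and TAZ (the protein of Wwtr1), which are then held in the cytoplasm or degraded. Unphosphorylated YAP1 and TAZ enter the nucleus and bind DNA through TEAD factors, among them TEAD1 and TEAD4. VGLL4 competes with YAP1 for TEAD and acts as a co-repressor, and AMOTL2 is a junction scaffold that binds YAP1 and activates LATS kinases. In the ovary, the pathway is known for restraining follicle growth, and YAP1 for promoting granulosa cell proliferation.

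Granulosa cells, which surround the oocyte in the follicle, were profiled by ATAC-seq, in which the transposase Tn5 inserts sequencing adapters into accessible DNA. All mice were 21 days old and received 5 IU of eCG (PMSG), a gonadotropin that stimulates follicle growth. Groups follow the sample titles, with 2 libraries in each, and every library was a pool of 2 to 3 mice. The LH experiment used wild-type F1 mice of a CBA x C57BL/6 cross: the PMSG group was killed 46 h after eCG, and the hCG group then received 5 IU of hCG, a substitute for the ovulatory LH surge, and was killed 6 h later. The PR experiment compared wild-type mice (WT) with progesterone receptor knockout mice (KO) of strain C.129S7(B6)-Pgrtm1Bwo/OmcJ, all 6 h after hCG. The Pgr allele is a germline knockout, so KO mice lack the receptor in every tissue and throughout life. The time tags go against the titles of the LH libraries: the hCG libraries are tagged 0 h and the PMSG libraries 6 h, while titles and source names match. In the PR experiment the tag is 6 h but the source name is pre-ovulatory. Every direction between hCG and PMSG therefore rests on the titles.

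The lists held between 55654 and 84313 intervals per library, with the most in the 2 WT libraries. The lists give no read numbers, so depth is unknown, and a missing peak can mean low sensitivity rather than closed chromatin. Lists cut to the same length, the 55654 intervals with the highest fold, were therefore used beside the full lists. Of the granulosa markers, the starts of Foxl2, Fshr and Lhcgr lay in a peak in all 8 libraries, while those of Inha and Nr5a2, and both ends of Hsd17b1, lay in none. Each library had a peak at 4 to 7 of the 10 granulosa markers, 0 or 1 of 5 theca and stroma markers, 1 of 5 for the oocyte, 1 or 2 of 5 for endothelium, 0 or 1 of 5 for leukocytes, and 0 of 3 for red blood cells. The leukocyte marker was Cd68, a macrophage gene, whose start lay in a peak in both hCG libraries and in no other. Its part in the hCG against PMSG results was not tested. At the start of Pgr, the targeted gene, the hCG, PMSG and WT libraries each had 1 unbroken interval. Both KO libraries had 2 intervals there, with a gap of 272 bp in replicate 1 and 394 bp in replicate 2.

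Promoter sequences are shown first because the letters GGAATG, the core recognised by TEAD factors, were found in those of the pathway's own members. RefSeq promoters of assembly GRCm38.p6 (250 bases before to 50 after a start) were available for 6 of the 8 genes. They had 8 entries, since Wwtr1 and Lats2 have 2 starts each. GGAATG, searched on both strands, was found in 6 of these 8 entries, where the 2 entries of Wwtr1 share 1 match, and in 5 of the 6 genes, with Lats1 as the exception. Counted by gene, it was found in 16.6% of 27025 genes. Counted by entry, it was found in 14.7% of all 32851 promoters of the table. It was found in 9.54% of the 6896 promoters with a GC content between 61.7% and 74.0%, the range of the matching members, and in 11.3% of the 13992 whose start lay in a region held by all 8 libraries. A match describes these letters only and does not show that a factor binds there. The 30 bases around each match are printed 5′ to 3′ along the gene's strand, with GGAATG or its reverse complement CATTCC in capitals.
Yap1 (chr9:8004720-8004749, minus strand): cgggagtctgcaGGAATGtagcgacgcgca
Wwtr1 (chr3:57576029-57576058, minus strand): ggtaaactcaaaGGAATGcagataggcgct
Lats2 (chr14:57746102-57746131, minus strand): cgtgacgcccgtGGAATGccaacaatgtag
Amotl2 (chr9:102717727-102717756, plus strand): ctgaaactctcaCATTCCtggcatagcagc
Vgll4 (chr6:114969268-114969297, minus strand): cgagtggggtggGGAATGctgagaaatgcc

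The match began 141 bases before the start in Yap1, 82 in Vgll4 and 65 in Amotl2, where it lay on the other strand. In Wwtr1 it began 136 or 170 bases before the start, depending on which start is taken, and in Lats2 it began at base 5 after the start. All 5 matches lay inside regions held by every library. The longer promoter stretches of the 2 coactivator genes, up to where the gene begins in the RefSeq gene table, show the context of the match, with the same capitals.
Yap1 (chr9:8004639-8004846, minus strand): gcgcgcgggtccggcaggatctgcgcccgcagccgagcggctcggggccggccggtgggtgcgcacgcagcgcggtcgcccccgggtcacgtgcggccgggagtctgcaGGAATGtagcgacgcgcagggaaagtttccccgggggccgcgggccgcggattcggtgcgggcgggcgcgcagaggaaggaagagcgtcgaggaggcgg
Wwtr1 (chr3:57575911-57576160, minus strand): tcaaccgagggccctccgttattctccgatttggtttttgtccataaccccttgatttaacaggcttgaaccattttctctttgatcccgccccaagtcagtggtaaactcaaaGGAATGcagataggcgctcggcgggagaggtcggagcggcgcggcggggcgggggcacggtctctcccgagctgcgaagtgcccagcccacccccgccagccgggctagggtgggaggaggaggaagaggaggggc

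Other motifs were searched on both strands in the same 8 entries. TGTGGT, the RUNX core, was found in Amotl2 only (16.8% of all promoters). The cAMP response element TGACGTCA (1.79% of all promoters), the AP-1 site TGANTCA (7.81%) and the steroid receptor half-site TGTTCT (19%) were found in 0 of the 8. The last 3 motifs were thus not in these 8 windows, and nothing follows from that for the factors or for other regions.

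The main feature of the 8 loci was a set of regions open in every library, which included the gene starts. Of the 115 regions, 46 (40%) were held by all 8 libraries, against 37.9% of all regions. The share at the Hippo genes was thus near that of the genome. All 12 regions that lay over an end of a protein-coding gene, neighbours of the Hippo genes included, were among these 46. Genome-wide, 10429 of the 11189 regions over a gene end were held by all 8 libraries, so this was the general pattern. Of the 12 starts and ends listed for the 8 genes, 9 lay in a peak of every library. The second start of Lats2, at position 57734418 of chromosome 14, lay in a peak of none. The other ends of Tead1 and Tead4 lay in no peak, but every library had one within 1 kb. The regions held by all 8 libraries had a median width of 916 bp (334 to 2281 bp).

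**Figure D1:**
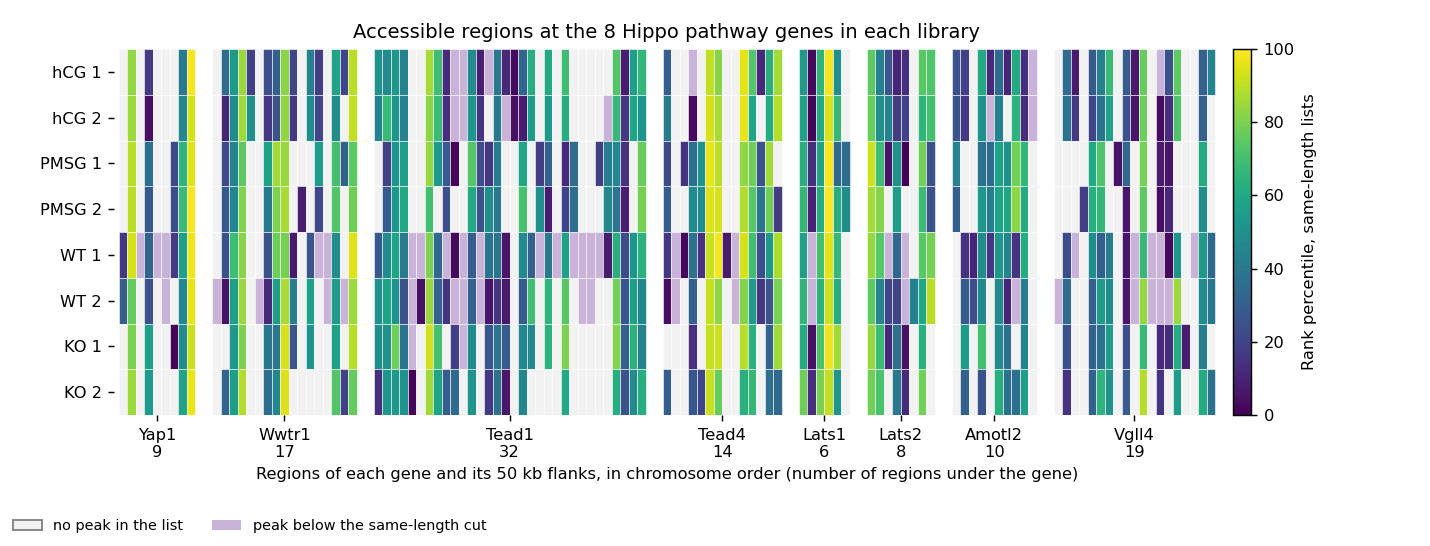
Presence and rank of the 115 regions (columns, in chromosome order within each gene) in the 8 libraries (rows). Colour gives the rank percentile of the fold within lists of the same length, light purple a peak below the 55654 retained, and grey no peak. Most columns with high ranks are filled in all 8 rows, and most incomplete columns are of low rank.

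Tead1, the longest locus at 327 kb, had 32 regions, and Lats1, at 135 kb, had 6. Between them, Vgll4 had 19 regions, Wwtr1 17, Tead4 14, Amotl2 10, Yap1 9 and Lats2 8. The median over 21627 protein-coding loci was 8. Lats1 had 5 of its 6 regions in all 8 libraries, Yap1 4 of 9, Lats2 4 of 8 and Amotl2 3 of 10. With full lists, the longest lists held the most regions: WT replicate 1 held 101 of the 115 regions, WT replicate 2 91, hCG 83 and 79, PMSG 74 and 69, and KO 69 and 67. With lists of the same length the counts were 75 and 70 in WT, 77 and 73 in hCG, 74 and 69 in PMSG, and 67 and 67 in KO.

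The starts were compared by rank percentile within lists of the same length, where 100 is the peak with the highest fold. The fold is the authors' enrichment of a peak over the caller's background in that library. Among the kinase genes, the Lats1 start region (chr10:7680579-7681975, which also overlaps the neighbouring gene Pcmt1) had ranks of 65.0 and 60.2 in hCG, 58.0 and 61.4 in PMSG, 70.2 and 63.9 in WT, and 71.5 and 79.9 in KO. The hCG and PMSG ranks overlapped, and both KO ranks lay above both WT ranks. The folds went the other way, with 12.2 and 12.3 in WT against 11.2 and 11.9 in KO. The lowest fold in the lists of the same length was 5.81 and 6.12 in WT and 3.74 and 1.03 in KO. Ranks and folds therefore need not give the same order of WT and KO. The Lats2 start region (chr14:57745287-57746728) had ranks of 74.1 and 64.9 in hCG, 78.5 and 68.2 in PMSG, 74.2 and 59.3 in WT, and 63.5 and 78.9 in KO. Groups overlapped in both experiments, so neither comparison separated at Lats2.

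Of the coactivator genes, the Yap1 start region (chr9:8003072-8005066) had folds of 8.20 and 8.93 in hCG, 11.5 and 12.3 in PMSG, 10.4 and 9.97 in WT, and 8.50 and 8.65 in KO. Its ranks were 40.7 and 46.0 in hCG, 65.2 and 67.7 in PMSG, 56.3 and 45.8 in WT, and 48.1 and 58.5 in KO. The hCG minus PMSG difference in mean rank was −23.1 percentile points (43.3 ± 3.77 against 66.4 ± 1.82, SD, n = 2), with an exact two-sided permutation p = 0.333. Both PMSG values lay above both hCG values, while WT and KO overlapped. The Wwtr1 start region (chr3:57574551-57576831) had ranks of 58.1 and 48.4 in hCG, 70.2 and 72.7 in PMSG, 49.1 and 54.8 in WT, and 56.4 and 72.7 in KO. By rank, PMSG lay above hCG and KO above WT, without overlap. By fold, WT (9.64 and 11.1) and KO (9.41 and 10.7) overlapped. Ranked by −log10 q in place of fold, the hCG minus PMSG difference was −7.53 at Yap1 and −1.45 at Wwtr1. The WT minus KO difference by −log10 q was −1.25 at Wwtr1 and −2.27 at Lats1, against −12.6 and −8.66 by fold. The size of these differences thus depended on the value ranked. In width, the Wwtr1 start region covered 2199 and 1917 bp in hCG and 1398 and 1574 bp in PMSG, whereas the Yap1 region covered 1853 and 1869 bp in hCG and 1734 and 1701 bp in PMSG. The PMSG peaks were the narrower ones at both genes, as in the whole lists, where the median interval was 422 and 412 bp in PMSG and 488 and 502 bp in hCG.

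For the TEAD genes, which have no strand in the gene table, the region over a gene end was taken. The Tead1 region (chr7:112678501-112680187) had ranks of 44.6 and 44.4 in hCG, 55.5 and 60.1 in PMSG, 41.7 and 25.4 in WT, and 38.4 and 51.4 in KO. The Tead4 region (chr6:128299911-128301772) had ranks of 73.3 and 59.3 in hCG, 77.9 and 73.7 in PMSG, 69.9 and 54.8 in WT, and 63.6 and 67.1 in KO. PMSG lay above hCG at both genes, narrowly at Tead4, and WT and KO overlapped at both. At the scaffold gene Amotl2, the start region (chr9:102717068-102718957) had ranks of 34.6 and 43.6 in hCG, 57.7 and 57.9 in PMSG, 53.1 and 47.3 in WT, and 47.2 and 63.5 in KO. The start region of Vgll4 (chr6:114968443-114970167), the TEAD co-repressor gene, had 30.6 and 30.5 in hCG, 60.6 and 49.1 in PMSG, 53.7 and 48.4 in WT, and 42.2 and 61.0 in KO. PMSG lay above hCG at both Amotl2 and Vgll4, and WT and KO overlapped.

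Over the starts and ends, both PMSG ranks lay above both hCG ranks at 6 of the 8 genes and overlapped at Lats1 and Lats2. This order was common to gene starts in general. Among the regions at gene ends that all 8 lists of the same length held, PMSG lay above hCG in 7 of 11 at the members (63.6%) and in 61.7% of 9857 genome-wide, and hCG above PMSG in 0 of 11 against 11.8%. KO lay above WT in 2 of 11 (18.2%) against 22.0%, and WT above KO in 0 of 11 against 4.60%. The members' shares of these orders were near the background, so the order at their starts is not a result about the Hippo genes. The median hCG minus PMSG difference was −13.3 points over the 11 member regions and −6.03 over the 9857. By fold in place of rank, both WT values lay above both KO values at Yap1, Tead1, Tead4, Lats1, Amotl2 and Vgll4. They overlapped at Wwtr1 and Lats2. No genome-wide share of this order by fold was computed. With 2 libraries against 2, the exact two-sided permutation test cannot give a p under 0.333. None of the 15 start, end and best regions passed in either experiment, with a smallest Benjamini-Hochberg adjusted p of 0.769 over 30 such exact tests.

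**Figure D2:**
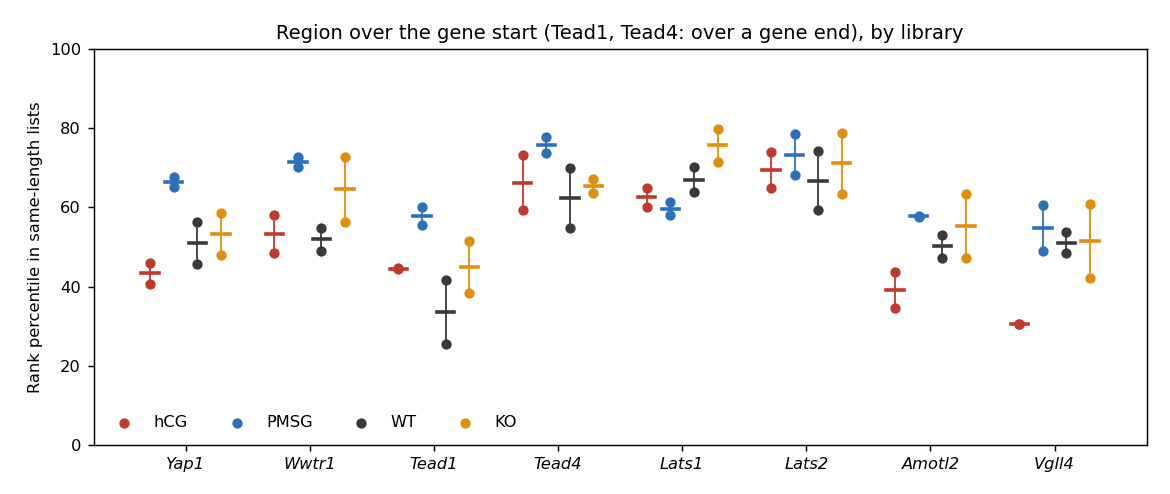
Rank percentile (vertical axis, 100 is the highest fold in the list) of the region over the start of each gene, or over a gene end for Tead1 and Tead4, in lists of the same length. Points are libraries, short bars group means and vertical lines join the 2 libraries of a group; hCG lies below PMSG at 6 of the 8 genes, and WT and KO overlap at 6.

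The region with the highest mean rank was not the start for 7 of the 8 genes. At Yap1 it lay 38.3 kb upstream at the neighbouring gene Cfap300 (chr9:8042332-8043392), with ranks from 91.5 to 99.1 across the 8 libraries. At Lats1 it lay in Katna1, downstream of Lats1 (chr10:7725654-7726604), with ranks from 90.7 to 99.5. At Lats2 it lay at Xpo4 (chr14:57664246-57665622), with 75.2 and 77.2 in hCG, 92.4 and 86.6 in PMSG, 83.9 and 75.3 in WT, and 84.6 and 78.5 in KO. These 3 regions belong by position as much to the neighbouring gene as to the Hippo gene. Within gene bodies, the highest were in Wwtr1 31.6 kb downstream of the start (chr3:57543981-57544665), in Tead1 (chr7:112696754-112697679) and in Vgll4 47.9 kb downstream of the start (chr6:114920473-114922183). At Wwtr1 the ranks there were 82.5 and 83.5 in hCG, 84.6 and 87.1 in PMSG, 79.1 and 86.9 in WT, and 93.9 and 94.9 in KO, so KO lay above WT. KO also lay above WT at the Tead1 region, with 92.9 and 85.9 against 80.2 and 84.7, while hCG (86.4 and 82.7) and PMSG (84.3 and 69.6) overlapped. By fold, WT and KO overlapped at both regions. Vgll4 spanned 67.1 to 88.8, with overlap in both experiments. The Tead4 region (chr6:128200129-128201323), below the lower-coordinate end of the gene, spanned 90.3 to 96.0. Amotl2 had its start region as the highest.

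The LH comparison asks how accessibility differs 6 h after hCG. At the 8 genes, 16 of 115 regions (13.9%) were hCG-only, that is, present in both hCG lists and in no PMSG list. A further 5 (4.35%) showed the reverse pattern, PMSG-only. Over all regions, 14.5% were hCG-only and 8.49% PMSG-only. With lists of the same length, 13 of 99 member regions (13.1%) were hCG-only against 13.7% of all, and 7 (7.07%) were PMSG-only against 12.0%. The hCG-only share at the Hippo genes was near the background by both counts. The PMSG-only share was below the background by both counts, on 5 and 7 regions, and this difference was not tested. Of the hCG-only regions, 13 kept that pattern in lists of the same length, and all 5 PMSG-only regions did.

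The hCG-only regions fell at 4 of the 8 genes: 6 at Tead1, 5 at Vgll4, 3 at Wwtr1 and 2 at Amotl2. Yap1, Tead4, Lats1 and Lats2 had none. The median protein-coding locus had 1. A count of 2 or more hCG-only regions was found at 29.6% of protein-coding loci, of 3 or more at 14.6%, of 5 or more at 3.8% and of 6 or more at 2.08%, without adjustment for locus length, and Tead1 and Wwtr1 are the longest loci here, followed by Vgll4. In lists of the same length, Tead1 had 4 hCG-only and 4 PMSG-only regions, so the balance of 6 to 2 there rested on the full lists, while Vgll4 had 5 and 0 and Wwtr1 3 and 0 by both counts. At Vgll4, covered length was 10106 and 9524 bp in hCG against 5000 and 4962 bp in PMSG. Covered length at Tead1 was 15081 and 15490 bp in hCG against 8651 and 9052 bp in PMSG, although Tead1 also had 2 PMSG-only regions. Genome-wide, the lists covered 39.0 and 38.2 Mb in hCG and 29.8 and 29.9 Mb in PMSG, so hCG peaks covered more in general. At Yap1 it was 4111 and 4112 bp in hCG and 4526 and 4437 bp in PMSG.

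**Figure D3:**
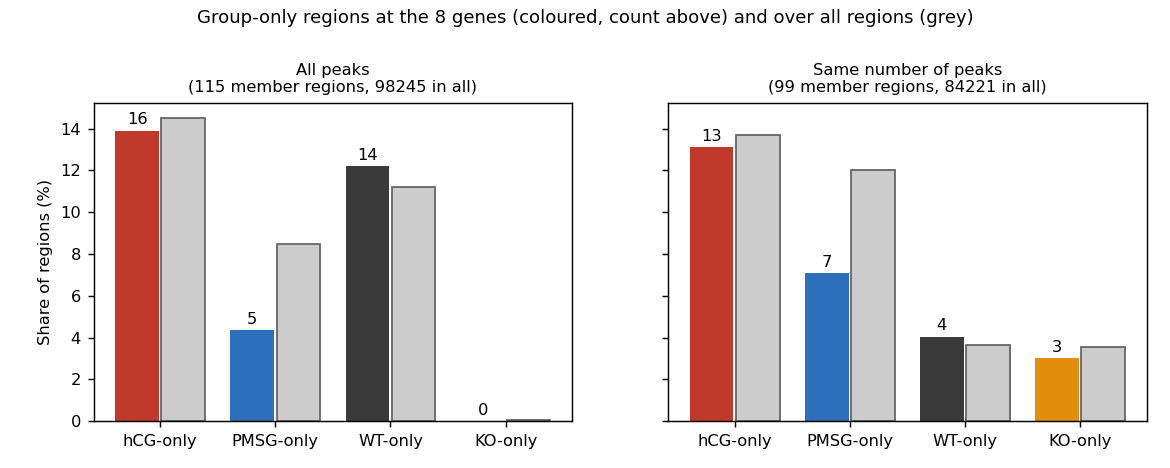
Share of regions (vertical axis, percent) held by both libraries of one group and neither of the other, at the 8 Hippo genes (coloured bars, counts above) and over all regions (grey), with full lists (left) and lists of the same length (right). Member and background bars are close for hCG-only and WT-only. The WT-only share is 12.2% at the members with full lists and 4.04% with equal lists.

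Of all hCG-only regions at these genes, the 2 with the highest mean rank lay inside Vgll4. The first (chr6:114939522-114940031), 29.4 kb downstream of the start, had folds of 12 and 11.8 in hCG, 9.99 and 15.9 in WT, and 9.99 and 8.27 in KO. PMSG libraries had no peak there. The second (chr6:114893658-114894951), 74.9 kb downstream, had folds of 11 and 10.1 in hCG, 8.84 and 10.2 in WT, and 9.29 and 7.84 in KO, again with no PMSG peak. Both regions were held by all 6 libraries taken after hCG, in both strains and with or without the progesterone receptor.

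Tead1 held the next 3. A region in the gene body (chr7:112813728-112814164) had folds of 10.5 and 9.82 in hCG, 7.83 and 13.1 in WT, and 8.40 in KO replicate 1, with no peak in KO replicate 2. A region 11 kb beyond the higher-coordinate end (chr7:112917784-112918801) had 9.68 and 10.3 in hCG, 10 and 11.3 in WT, and 10.3 and 7.47 in KO. A region 31.6 kb below the lower-coordinate end (chr7:112647412-112647757) had 9.11 and 8.75 in hCG, 7.64 and 10.4 in WT, and 8.61 and 4.74 in KO. The last 2 were again held by all 6 libraries taken after hCG. At Wwtr1, a region 20 kb downstream of the start (chr3:57555731-57556056) had 8.45 and 9.17 in hCG, 7.54 and 11.2 in WT, and 8.93 in KO replicate 1 alone of the KO libraries. The other 10 hCG-only regions had folds between 3.73 and 9.36 in the hCG libraries. The 16 had a median width of 362 bp (241 to 1294 bp), and 2 of them were wider than the median of the regions held by all 8 libraries. None of the group-only regions of either experiment, 34 in all, lay over a gene end, and genome-wide 1.05% of 30079 group-only regions did.

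**Figure D4:**
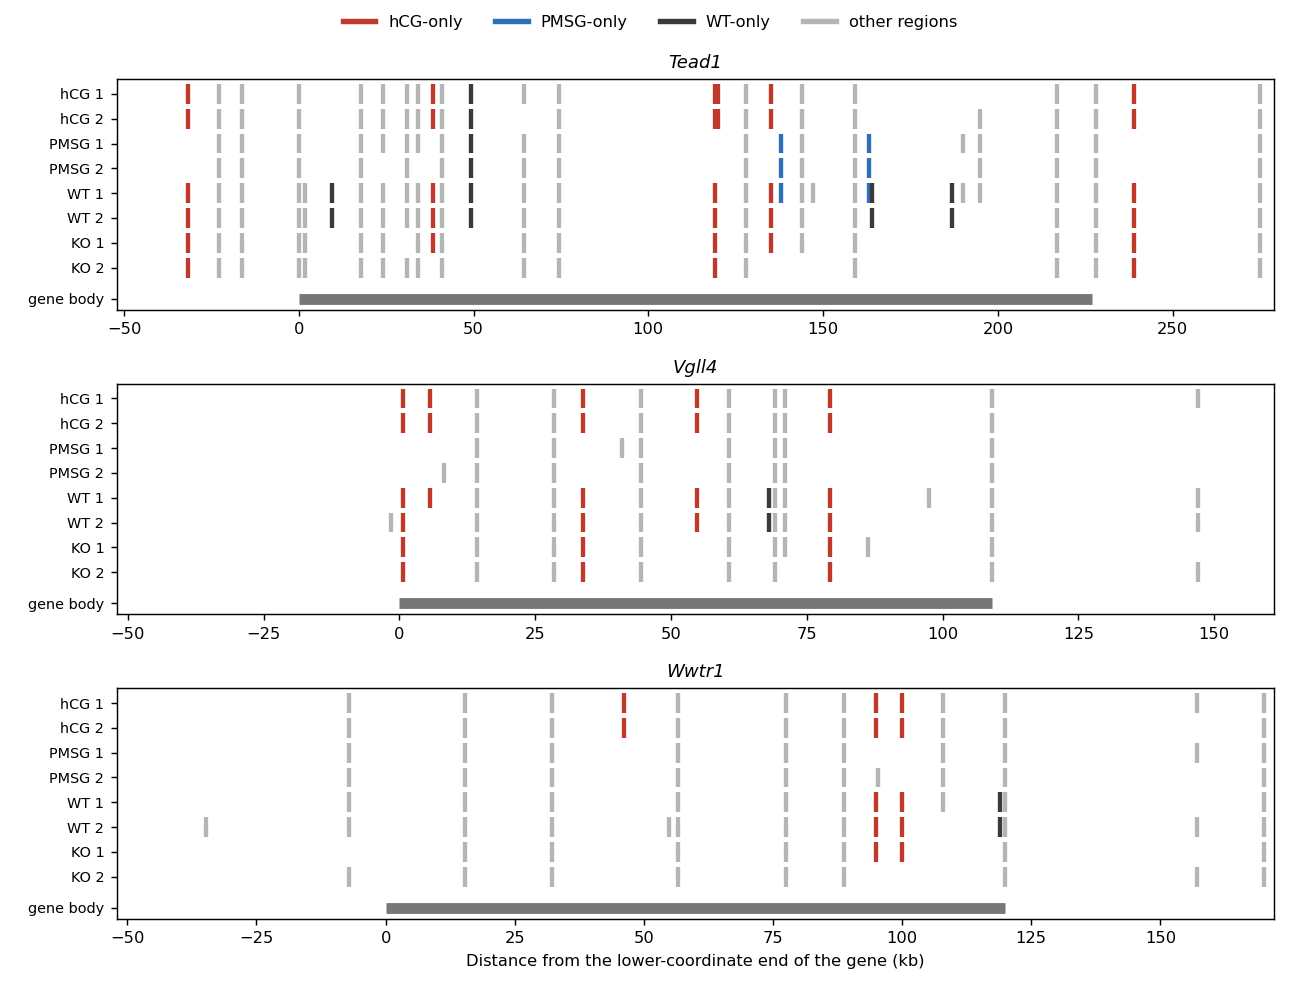
Position of each region (ticks, not to width) in each library along Tead1, Vgll4 and Wwtr1, in kb from the lower-coordinate end of the gene, with hCG-only regions in red, PMSG-only in blue, WT-only in black and other regions in grey. Colour follows the region, so red ticks in WT and KO rows are hCG-only regions that those libraries also hold; Vgll4 has 5 red columns and no blue one.

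The hCG-only regions were then looked up in the PR experiment, whose 4 libraries were all taken after hCG. Both WT libraries held 12 of the 16 (75%), and both KO libraries held 7 (43.8%). Over all hCG-only regions the shares were 78.5% and 41.5%. KO replicate 1 held 11 (68.8%) against 62.9%, and KO replicate 2 held 7 (43.8%) against 44.3%. Shares at the Hippo genes were near the background in each case, and the KO lists were shorter than the WT lists. Only 1 region was both hCG-only and WT-only (0.870% against 2.41%), a 298 bp region in Vgll4 (chr6:114915135-114915432), 53.9 kb downstream of the start. Its folds were low, 5.47 and 5.33 in hCG and 4.41 and 5.15 in WT, and the WT peaks were below the cut in lists of the same length.

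PMSG-only regions lay at Tead1 (2), Tead4, Lats1 and Yap1. Of protein-coding loci, 35.9% had 1 or more and 12.8% had 2 or more. The Tead4 region (chr6:128194891-128195219), 31.9 kb from the gene, had folds of 9.68 and 9.76 in PMSG, 6.67 in WT replicate 1 and 5.23 in KO replicate 2. The Lats1 region (chr10:7766441-7766722), which lies 1.23 kb from Ginm1 and 85.4 kb from the Lats1 start, had 7.88 and 9.64 in PMSG and no peak elsewhere. In Tead1, a region at chr7:112841972-112842327 had 7.84 and 8.28 in PMSG and 5.32 in WT replicate 1. The other in Tead1 (chr7:112817632-112817941) had 6.24 and 9.82 in PMSG and 4.48 in WT replicate 1. In Yap1, a region 15.4 kb downstream of the start (chr9:7988972-7989469) had 6.61 and 7.08 in PMSG, 6.91 in WT replicate 1 and 3.99 in KO replicate 1. It was the only group-only region of the LH experiment at Yap1.

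WT replicate 1 held 4 of the 5 PMSG-only regions (80%) and WT replicate 2 held 0, against 76.2% and 45.6% of all PMSG-only regions. KO replicates 1 and 2 each held 1 (20%), against 20.8% and 34.1%. The difference between the WT replicates was thus seen genome-wide as well.

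Of the regions that were not over a gene end and were held by all 8 lists of the same length, both hCG ranks lay above both PMSG ranks in 7 of 32 at the members (21.9%) and in 35.5% of all, and PMSG lay above hCG in 17 (53.1%) against 38.6%. This comparison includes 32 regions in 8 loci, and neighbouring regions are not independent.

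The PR comparison asks what differs without the progesterone receptor after hCG. At the 8 genes, 14 of 115 regions (12.2%) were WT-only and 0 were KO-only. Over all regions, 11.2% were WT-only and 0.0743% KO-only, so the members followed the genome-wide split, in which the WT lists were longer. With lists of the same length, 4 of 99 regions (4.04%) were WT-only and 3 (3.03%) were KO-only, against 3.64% and 3.55%. Those 4 were also WT-only with full lists. The 3 KO-only regions of the equal lists, named after their values were seen, were near Lats1 (chr10:7667250-7667804), in Lats2 (chr14:57708641-57709627) and in Vgll4 (chr6:114929476-114930167), and both WT libraries held all 3 with full lists. In the lists as deposited, no member region was held by both KO libraries and missing from both WT libraries. A region of 205 bp in Vgll4 (chr6:114946863-114947067, fold 4.77) was held by KO replicate 1 alone.

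The 4 WT-only regions that remained in equal lists were at Lats2, Yap1, Tead4 and Amotl2. The Lats2 region (chr14:57784474-57785097, 624 bp) lies 38.7 kb upstream of the Lats2 start and 13.1 kb from Sap18. It had folds of 11.6 and 11.5 in hCG, 6.90 and 7.19 in PMSG, and 13.6 and 17.0 in WT, and neither KO list had a peak there. Its ranks were 72.5 and 70.2 in hCG, 25.0 and 25.1 in PMSG, and 79.1 and 89.7 in WT. Of the 13 member regions with both WT ranks at 75 or above, it was the only 1 with no KO peak. Of 11072 such strong WT regions in the genome, 17 (0.154%) had no peak in either KO list. Both hCG libraries held 14 of those 17, both PMSG libraries 5, and all 4 LH libraries 2, the Lats2 region being 1 of these 2. In the reverse direction, 0 of 10129 strong KO regions had no peak in either WT list. The threshold of 75 was chosen after the Lats2 values were seen. The cause of its absence from the KO lists was not tested.

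The other 3 were weaker. The Yap1 region (chr9:7897660-7897789), 107 kb downstream of the start and 24.5 kb from Birc3, was 130 bp wide and had folds of 6.83 and 8.33 in WT and no peak elsewhere. The Tead4 region (chr6:128318359-128318648), 2.49 kb from Tulp3, had 7.34 and 7.24 in WT, 5.82 in hCG replicate 1, and 6.90 and 8.59 in PMSG. The Amotl2 region (chr9:102677199-102677919), 40.2 kb upstream of the start, had 6.43 and 7.82 in WT and no peak elsewhere. Regions in Tead1 (chr7:112688803-112689143) with folds of 5.74 and 6.42 and Yap1 (chr9:7979643-7979805) with 3.79 and 3.90, were WT-only with full lists alone. The remaining 8 WT-only regions had WT folds between 1.91 and 5.55. One of them, in Tead1 (chr7:112728117-112728900), was also held by all 4 LH libraries.

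Yap1 and Pgr lie 894 kb apart on chromosome 9, with the protein-coding genes Cfap300, Cep126 and Trpc6 between them. The strain name marks a targeted allele that was moved into another background, and DNA of the donor strain may flank it. An effect of such flanking DNA at Yap1 cannot be told apart from an effect of the genotype. Between the 50 kb flanks of the genes lay 17 regions. All 8 libraries held 5 of them, 2 were hCG-only, 1 was PMSG-only, 0 were WT-only and 0 KO-only. With lists of the same length, 2 were hCG-only, 1 PMSG-only, 0 WT-only and 1 KO-only. Pgr and its own 50 kb flanks had 13 further regions, which included 1 hCG-only, 0 PMSG-only, 2 WT-only and 1 KO-only region. In equal lists these counts were 1, 1, 0 and 1. At Yap1, 9 regions included 2 WT-only and no KO-only region, and only 1 of the WT-only regions remained in equal lists. Yap1 thus had a single WT-only region by the stricter count, of 130 bp.

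**Figure D5:**
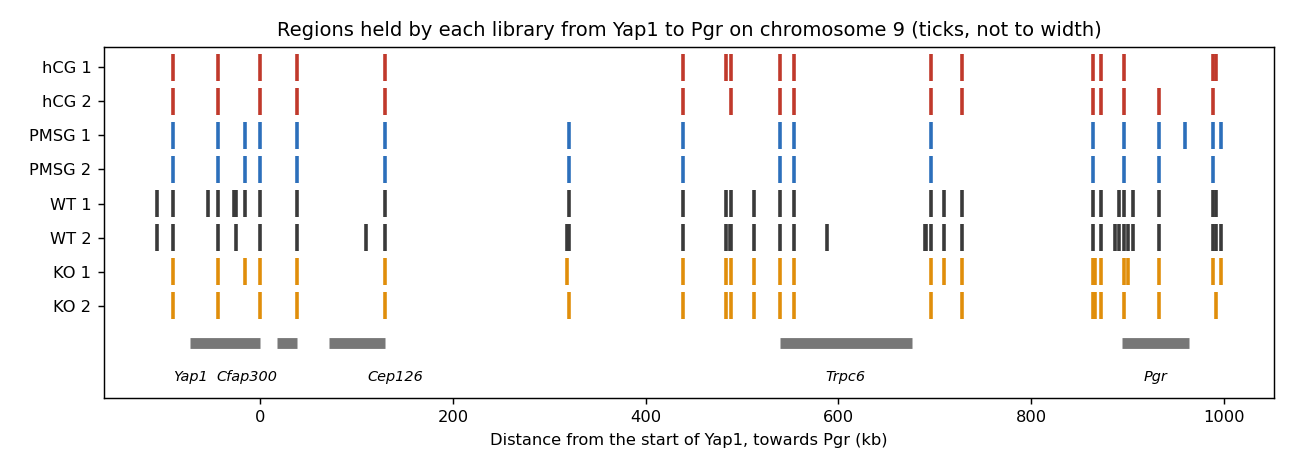
Regions held by each library (ticks, not to width) from Yap1 to Pgr, in kb from the Yap1 start towards Pgr, with gene bodies as grey bars. The regions at the Yap1 start, 38.3 kb from it at Cfap300 and elsewhere in the span recur in all 8 rows, and the WT rows have the most ticks.

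The covered share, the length covered by peaks at the 8 loci as a percent of the length covered by the whole list, takes list size into account. It was 0.146% and 0.145% in hCG, 0.137% and 0.140% in PMSG, 0.143% and 0.137% in WT, and 0.137% and 0.147% in KO. The hCG mean was above the PMSG mean by 0.00683 percentage points (0.145 ± 0.000491 against 0.139 ± 0.00190, SD, n = 2), without overlap, with an exact two-sided permutation p = 0.333. The WT minus KO difference was −0.00242 (0.140 ± 0.00447 against 0.142 ± 0.00708, SD, n = 2), with overlap and an exact two-sided permutation p = 0.667. With lists of the same length, the WT minus KO difference turned to 0.00852 without overlap, and hCG minus PMSG was also 0.00852. With the best 20000 peaks per library, hCG minus PMSG turned to −0.0146, so both directions depended on list length.

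The wider pathway was described with 32 further genes, which had 424 regions. Of these, 174 were held by all 8 libraries, 73 (17.2%) were hCG-only, 21 (4.95%) PMSG-only, 50 (11.8%) WT-only and 0 KO-only, against 14.5%, 8.49%, 11.2% and 0.0743% of all regions. In equal lists, 60 of 355 (16.9%) were hCG-only, 23 (6.48%) PMSG-only, 9 (2.54%) WT-only and 15 (4.23%) KO-only, against 13.7%, 12.0%, 3.64% and 3.55%. These differences from the background were not tested. By role and with full lists, the 15 upstream genes and kinases had 37 hCG-only and 8 PMSG-only regions of 215. The 6 scaffolds and YAP regulators had 19 and 6 of 88, the 5 TEAD factors and cofactors 6 and 1 of 32, and the 6 common YAP and TAZ targets 11 and 6 of 89. Wwc2 (25 regions), a relative of the scaffold KIBRA, and Ywhaz (20), a 14-3-3 protein that holds phosphorylated YAP1 in the cytoplasm, had 8 hCG-only regions each with full lists, where 2.08% of protein-coding loci had 6 or more. That share is for a lower count and is not adjusted for locus length, and the median locus had 8 regions in all. The genes named here were picked from the 32 for their counts. In equal lists Wwc2 had 8 and Ywhaz 4. Taok3 (21 regions), a kinase that can activate the Hippo kinases, had 5 by both counts, where 3.8% of protein-coding loci had 5 or more with full lists. Crim1, a target of YAP1, had the most regions of the list, 30. It had the most PMSG-only regions with full lists, 4, where 12.8% of protein-coding loci had 2 or more. In equal lists it had 3 and Nf2, an upstream activator of the kinases, had 4. Map4k4 (26 regions), an upstream kinase, the scaffold gene Amotl1 (25) and the target gene Ccn1 (15) had the most WT-only regions with full lists, at 5 each. In equal lists, Map4k4 had 0, Amotl1 1 and Ccn1 1. Vgll1 had neither an hCG-only nor a PMSG-only region.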

How the data were processed

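Each of the 8 ATAC-seq libraries, from eCG-primed granulosa cells, came with 1 narrowPeak list, called per library. Bowtie2, MACS2 and mm10 are named in the submitters' processing notes. Versions, read filters and any shift for the Tn5 cut are not given in the sources used here. Peak names in the PR lists mention filtering and marked duplicates and those in the LH lists do not, so processing may have differed between experiments. In the deposited lists, column 7 was taken as fold enrichment, a ratio within a library. Columns 8 and 9, as the authors deposited them, were taken as −log10 of a p-value and a q-value, the latter at least 10 in every list. The authors' score in column 5 was not used. These values were used only to rank or filter peaks within a list, and intervals and shares carry no counting error, since read numbers are not in the lists.

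Summits of 1 interval were joined, keeping the best fold, and intervals sharing 1 bp or more across the 8 lists were merged into regions. Genes and promoters were those of RefSeq, GRCm38.p6. Any peak of a library in a region counted as presence. Group-only means held by both libraries of a group and neither of the other in that experiment. Background shares are over all regions called the same way. Ranks used the 55654 intervals of highest fold in each list. Regions at starts, the 6 highest-ranked group-only regions per direction, those group-only in both experiments and the best region per gene were named. The genes and lists were chosen with earlier results of these data known. The labels state biological replicates but no pairing: the correlation of deviations of same-numbered libraries was 0.0372 in the LH and 0.0946 in the PR experiment (32312 regions). Single values were tested by exact two-sided permutation. Scripts (Python 3.11.15, pandas 2.3.3, NumPy 2.4.6, statsmodels 0.14.6) were tested on simulated data. Alternatives varied list length, threshold, overlap, merging, flank, ranking value and libraries.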

Additional observations from a re-analysis of the deposited data

How the results depend on the processing

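The hCG-only count of 16 was 5 with the best 20000 peaks per library and 26 when a library had to cover 50% of a region. It ranged from 16 to 20 when 1 library was left out. Leaving out a library eases the group-only rule, which asks for both libraries of a group and neither of the other. Counts with 1 library left out therefore lean upwards by design, here and below, and do not test stability. The PMSG-only count of 5 was 3 with a 20 kb flank and 3 in gene bodies alone, and ranged from 6 to 8 when 1 library was left out, reaching 8 without PMSG replicate 2 or hCG replicate 1. The WT-only count of 14 was 4 with the same number of peaks, 1 with the best 20000, 9 at a −log10 q of 20 or more and 9 in gene bodies alone. It ranged from 18 to 27 when 1 library was left out, with the highest value without WT replicate 2. The KO-only count of 0 was 3 with the same number of peaks, 1 under 50% cover, and 0 to 1 when 1 library was left out, the 1 without KO replicate 2. The hCG minus PMSG covered share reversed to −0.0146 with the best 20000 peaks, and the WT minus KO share to 0.00852 with the same number of peaks; leaving out 1 library gave −0.00743 to 0.00259, positive without WT replicate 2 (0.000737) or KO replicate 2. The median rank difference over the start and best regions was −3.81 for hCG minus PMSG (−8.96 to −3.36 with 1 library left out) and −3.03 for WT minus KO (−9.94 to 0.349, positive without WT replicate 2). The Tead4 end region reversed to 3.8 for WT minus KO with the best 20000 peaks, where hCG minus PMSG at Yap1 went from −23.1 to −6.64 and at Tead4 from −9.5 to −19.8, and WT minus KO at Lats1 from −8.66 to −23.8. These shifts include absent peaks, since a region without a peak in a cut list gets rank 0. The start or end regions of Tead1, Amotl2 and Vgll4 fell outside the best 20000 of every library. Yap1 stayed in the PMSG lists alone, and Wwtr1 in those and KO replicate 2 alone. The Tead4 region was missing from hCG replicate 2, WT replicate 2 and KO replicate 1. Of the WT and KO lists, WT replicate 2 lacked the Lats1 region. Ranked by −log10 q instead of fold, the hCG minus PMSG difference was −7.53 at Yap1, −1.45 at Wwtr1, −3.74 at Tead1, −1.47 at Amotl2 and −17.5 at Vgll4, and it changed sign at Lats2 (−3.81 to 2.1). WT minus KO changed sign at Yap1 (−2.25 to 2.09), Amotl2 (−5.19 to 2.36) and Lats2 (−4.46 to 0.27), where the groups overlapped. The causes were not tested. With the replicate block, the covered share differences stayed at 0.00683 and −0.00242, as a balanced block leaves them, with exact sign-flip p = 0.5 and p = 1. With 2 blocks this test cannot give a p under 0.5, so it could not change a call. Depth is unknown, which limits every count of absent peaks.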
